A study of Mus musculus with 2 samples.

Results

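The 9 genes described here encode the contractile apparatus of smooth muscle and its transcriptional switch: Myh11, Tagln, Cnn1, Cnn2, Mylk, Lmod1, Smtn, Cald1 and Myocd. They were chosen by name, and each was represented by 1 probe set that the platform annotation gives to that gene alone, out of 19938 genes with a probe set of their own. 0 probe sets shared between several genes named a member. Mandibles of mouse fetuses on the BALB/c background were profiled at E18.5 (embryonic day), shortly before birth, on Affymetrix arrays, with 1 array from a wild-type sample and 1 array from a sample null for both Myf5 and MyoD (Myf5-/-:MyoD-/-). The transcription factors Myf5 and MyoD direct cells into the skeletal muscle lineage, and the study concerns the role of that muscle in building the jaw. Both groups share strain, tissue and age; the number of fetuses behind each sample and the construction of the null alleles are not stated in the sources used here. Smooth muscle genes were compared between genotypes as those of a contractile lineage whose formation does not need Myf5 or MyoD.

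Smooth muscle surrounds blood vessels and ducts. Its cells contract when calcium and calmodulin activate myosin light chain kinase, which phosphorylates the light chains of smooth muscle myosin, whereas striated muscle uses troponin on the thin filament. Most contractile genes of smooth muscle are switched on by serum response factor, which binds a short element called the CArG box, and by its coactivator myocardin. Sarcomeric actin genes of skeletal and cardiac muscle also carry CArG boxes.

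The CArG box was looked up in promoters from RefSeq (GRCm38.p6, 250 bases before to 50 after each gene start), to show the element that smooth and skeletal muscle promoters share. The table held 7 promoters of 6 members (Cald1 with 2, Cnn1, Cnn2, Lmod1, Mylk and Smtn) and none of Tagln, Myh11 and Myocd. The CArG box, searched by exact match to its standard 10-base pattern on both strands, was found in the promoter of Cnn2 alone. Over all 32851 promoters of the table, 535 held the box (1.63%). Boxes farther from the gene start, or with a differing base, were not searched. A promoter without a match is therefore not evidence that the gene lacks the element. Among 10 other smooth muscle genes, 8 had a promoter in the table and 2 of these, Myl9 and Vcl, held the box. Windows of 60 bases are printed 5′ to 3′ on the gene's strand with the box in capitals, for 2 smooth muscle genes and for 2 sarcomeric actin genes of skeletal muscle, Acta1 and Actc1; these 4 were chosen after their values were seen.
Cnn2, chr10:79988519-79988578, plus strand: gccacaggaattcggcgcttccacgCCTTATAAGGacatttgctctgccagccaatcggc
Myl9, chr2:156775278-156775337, plus strand: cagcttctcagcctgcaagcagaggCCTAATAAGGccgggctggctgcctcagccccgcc
Acta1, chr8:123894814-123894873, minus strand: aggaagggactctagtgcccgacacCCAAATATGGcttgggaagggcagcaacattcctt
Actc1, chr2:114052888-114052947, minus strand: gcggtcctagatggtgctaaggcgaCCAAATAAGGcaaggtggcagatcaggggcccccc

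The first base of the box lay 56 bases before the annotated start in Cnn2, 161 in Myl9, 73 in Acta1 and 47 in Actc1. A match describes these letters only and is not evidence of binding. The 4 genes with these boxes differed by unequal amounts between the arrays. Cnn2 gave a deposited log2 signal of 10.32 (wild type) and 10.70 (double knockout), and Myl9 gave 9.84 and 9.68. Acta1 gave 12.20 in the wild type and was below the floor in the double knockout, at least 64.5-fold lower, and Actc1 went from 12.47 to below the floor, at least 77.8-fold lower. The floor, under which a signal was not taken as measured, was the median of the annotated probe sets of each array, at 6.18 (wild type) and 6.19 (double knockout).

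With 1 array per genotype every difference has no replicate check, and no p-value or error between animals can be given. Differences are double knockout minus wild type in log2 units, and each compares these 2 arrays. As the sole measure of spread, the 2 brightest probe sets were compared within each gene, and their differences varied with an SD of 0.23 over 532 genes; this leaves out animals and hybridisations. Across the 10393 genes above the floor on at least 1 array, called measured here, the median difference was 0.098, the 5th and 95th percentiles were -0.59 and 0.50, and 67.0% of the genes were higher in the double knockout. Of the targeted genes, Myf5 went from 6.31, close to the wild-type floor of 6.18, to below the floor (deposited 4.95), at least 1.09-fold lower. Myod1 went from 7.14 to 6.49, 1.58-fold lower and above the floor on both arrays. Where the probes of both genes lie relative to the deleted parts is not stated in these sources. Of 9 cartilage, bone and jaw patterning genes used to check the labelled tissue, 8 exceeded the floor on both arrays and Runx2 had no probe set of its own.

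The smooth muscle genes lay on both sides of the median of all measured genes, and none was 2-fold apart. Signals above the floor were found on both arrays for 7 of the 9, while Lmod1 and Myocd were below it on both. Of the 7, 4 were higher and 3 lower in the double knockout, and their median difference was 0.08 against 0.098 for all measured genes. Of the 7 differences, 2 were between the 25th and 75th percentiles of all measured genes, 6 between the 5th and the 95th, and 4 were larger in size than the probe set SD of 0.23. With the median of all measured genes set to 0 the split was 3 higher and 4 lower, and the median was -0.014. A floor raised to the 75th percentile left 4 members, whose median was 0.36. 0 of the 7 were at least 2-fold lower, where 2.73% of measured genes were, and 0 were at least 2-fold higher, where 0.510% were. Counts of 0 among 7 genes are near these shares and are not a result about the group. At 1.5-fold, again 0 of the 7 were lower and 0 higher, against 5.11% and 3.07% of measured genes, and Mylk lay just inside at 1.498-fold. In bulk tissue fewer cells of a type and less RNA per cell cannot be told apart.

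**Figure D1:**
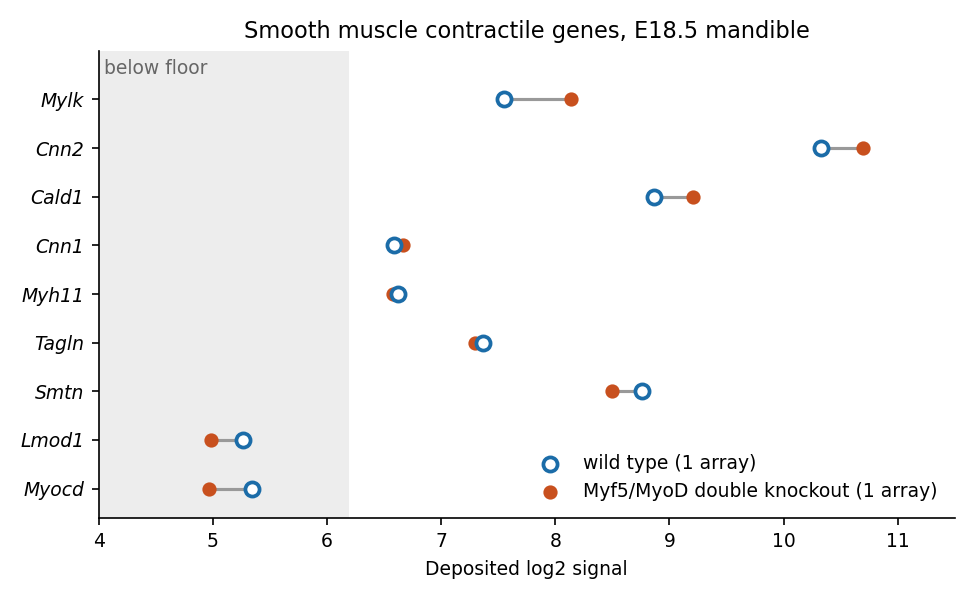
Deposited log2 signal (horizontal axis) of each of the 9 smooth muscle genes on the wild-type array (open circles) and the double-knockout array (filled circles), 1 array each, with the region below the floor in grey. Mylk had the widest gap (7.55 against 8.13), Lmod1 and Myocd were under the floor in both genotypes, and positions of different genes are not comparable as levels.

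Myh11, Tagln and Cnn1 had the smallest differences among the 7. Myh11, the smooth muscle myosin heavy chain, gave 6.62 (wild type) and 6.58 (double knockout), a difference of -0.04. Tagln (SM22 alpha), an actin-binding protein of the calponin family, gave 7.37 and 7.30, a difference of -0.07. Cnn1, calponin 1, which binds actin and restrains the myosin motor, gave 6.58 and 6.67, a difference of 0.08 that became -0.014 with the median of all measured genes set to 0. These 3 differences were smaller than the probe set SD of 0.23, and Myh11 and Cnn1 stood only 0.39 to 0.48 above the floor on each array, where a loss of more than that size could not have been measured.

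Smtn, smoothelin, an actin-associated protein of contractile smooth muscle cells, was the only member above the floor with a lower signal by more than that SD. It gave 8.76 and 8.50, a difference of -0.26 or 1.20-fold lower. Of all measured genes, 66.9% had a smaller absolute difference than Smtn.

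The other 3 measured members were higher in the double knockout. Mylk, the myosin light chain kinase that starts smooth muscle contraction, gave 7.55 and 8.13, a difference of 0.58 or 1.498-fold. Cnn2, calponin 2, gave 10.32 and 10.70, a difference of 0.37 or 1.29-fold. Cald1, caldesmon, which binds actin, myosin and tropomyosin and holds back contraction, gave 8.87 and 9.21, a difference of 0.34 or 1.27-fold. All 3 of these genes are also expressed outside smooth muscle: calponin 2 is widespread, and Mylk and Cald1 make longer or shorter non-muscle forms from the same gene. Which form a probe set reads is not stated in these sources. Mylk exceeded 91.7% of measured genes in absolute difference, Cnn2 80.9% and Cald1 78.0%. Mylk was the 1 of 7 members outside the 5th to 95th percentile of all measured genes.

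Myocd, myocardin, and Lmod1, leiomodin 1, a smooth muscle protein that starts actin filaments, could not be compared. Myocd had deposited values of 5.34 and 4.96 and Lmod1 of 5.26 and 4.98, all under the floor. Values under the floor have no order here.

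**Figure D2:**
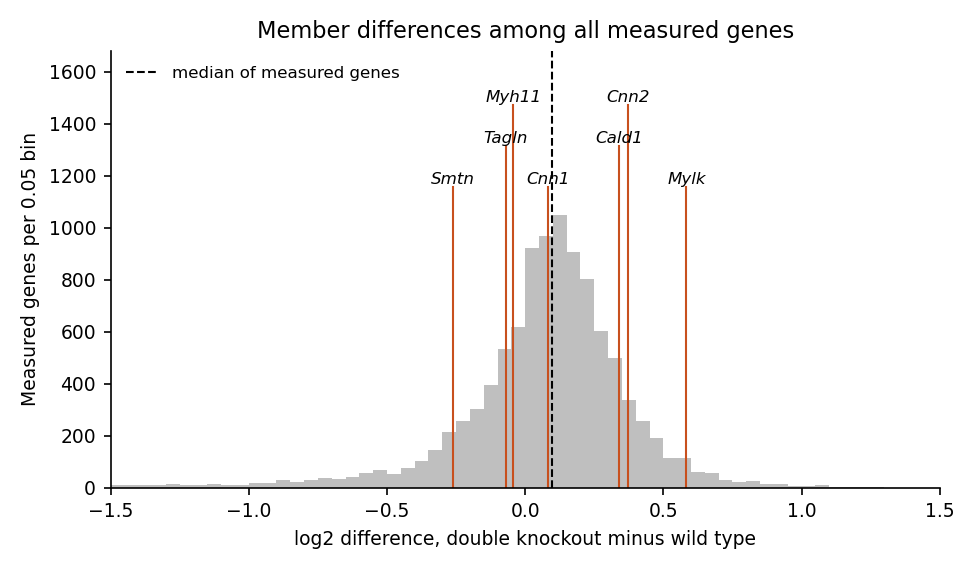
Number of measured genes (vertical axis) in bins of 0.05 log2 units by the difference between double knockout and wild type (horizontal axis), with the 7 measured smooth muscle genes as vertical lines and the median of 0.098 dashed. Smtn lies lowest at -0.26 and Mylk highest at 0.58; 175 genes below -1.5 and 20 above 1.5 are outside the axis.

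The same protein families have members used in skeletal or heart muscle, and these differed from the smooth muscle members on the same arrays. Of 7 striated muscle paralogs, 6 were measured and all 6 were lower in the double knockout. At least 2-fold lower were 5 of the 6 (2 of 5 measured with the floor at the 75th percentile), beside 2.73% of all measured genes. The median difference of the 6 was -2.19, and 5 of the 6 differences are lower bounds because the double-knockout value lay at the floor. The medians of the smooth muscle members and of all measured genes were 0.08 and 0.098.

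Among the kinases, Mylk2, the skeletal muscle light chain kinase, gave 8.47 in the wild type and was below the floor in the double knockout (deposited 4.55), at least 4.87-fold lower. Mylk4, a muscle-expressed relative, gave 8.78 and was then below the floor (deposited 3.02), at least 6.03-fold lower. Mylk3, the cardiac kinase, was below the floor on both arrays. Mylk, the smooth muscle member of the family, was the only one of the 4 with a higher measured value in the double knockout.

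Among the leiomodins, Lmod2 gave 8.16 and then 4.70 under the floor, at least 3.92-fold lower. Lmod3, which like Lmod2 lengthens or builds thin filaments of striated muscle, gave 8.29 and then 3.92 under the floor, at least 4.29-fold lower. Lmod1 was unmeasured on both arrays, so the leiomodins that the wild-type array measured were the striated ones. In the smoothelin family, Smtnl2 gave 8.87 and 6.47, a difference of -2.40 or 5.28-fold lower, with neither value under the floor. Smtnl1, a regulator of muscle contraction, gave 6.73 and then 4.69 under the floor, at least 1.45-fold lower.

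**Figure D3:**
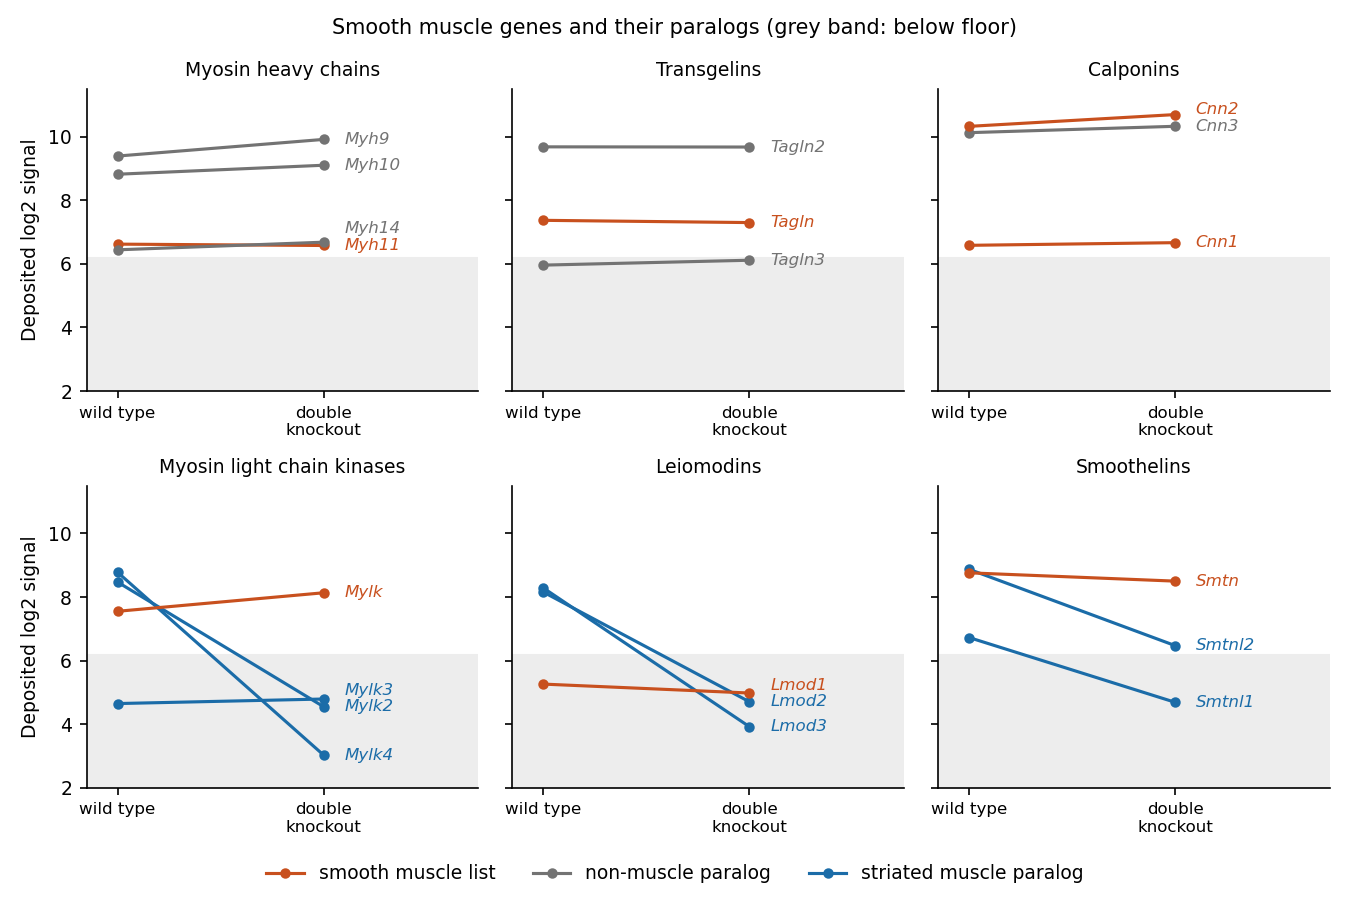
Deposited log2 signal (vertical axis) on the wild-type and the double-knockout array, 1 line per gene and 1 panel per family, with smooth muscle list members in orange, non-muscle paralogs in grey and striated muscle paralogs in blue; the grey band is below the floor. The lines of Mylk2, Mylk4, Lmod2, Lmod3 and Smtnl1 enter the band in the double knockout and that of Smtnl2 dropped by 2.40, while the lines of the smooth muscle members differ by at most 0.58.

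Paralogs used outside muscle were read beside them. Of 6 non-muscle paralogs, 5 were measured, 4 of them were higher in the double knockout under each of 3 scalings, and 0 were 2-fold apart; with 5 genes this is near the 67.0% of all measured genes that were higher. Their median difference was 0.24. Myh9, a non-muscle myosin heavy chain, gave 9.39 and 9.91, a difference of 0.52, with its other probe set below the floor on both arrays. Myh10, another non-muscle myosin heavy chain, gave 8.82 and 9.10, a difference of 0.28, and Myh14 gave 6.44 and 6.68, a difference of 0.24. Cnn3, calponin 3, gave 10.13 and 10.33, a difference of 0.20. Tagln2, the non-muscle transgelin, gave 9.68 and 9.67, a difference of -0.0061. The neuronal Tagln3 was below the floor on both arrays.

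Other smooth muscle genes, outside the 9, had a lower median. Of 10 such genes, 9 were measured on both arrays, and 8 were lower under each of 3 scalings. Of all measured genes, 67.0% were higher as deposited. Of the 9, 0 were at least 2-fold apart as deposited, and their median difference was -0.16. Acta2, smooth muscle alpha actin, gave 11.22 and 10.28, a difference of -0.93 or 1.91-fold lower, and it was at least 2-fold lower with the median of all measured genes set to 0. Actg2, the gamma actin of visceral smooth muscle, gave 7.18 and 6.45, a difference of -0.73. The double-knockout value of Actg2 stood only 0.27 above the floor. Acta2 is also transcribed in immature skeletal muscle fibres. That source and smooth muscle cannot be told apart here. Which cells gave the signals of the other genes of this list was not tested.

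The remaining genes of that list differed by at most 0.32 in either direction. Ppp1r14a (CPI-17), an inhibitor of myosin phosphatase, gave 6.47 and 6.20, a difference of -0.27, with the double-knockout value only 0.009 above the floor. Aoc3, a smooth muscle surface amine oxidase, gave 7.48 and 7.31, and Itga8, an integrin alpha subunit, gave 7.08 and 7.00. Myl9, the regulatory light chain that Mylk phosphorylates, differed by -0.16, the focal adhesion protein Vcl by -0.15 and the LIM protein Csrp1 by -0.14. Flna, the actin crosslinker filamin A, was the 1 higher member at 0.32. Kcnmb1, the smooth muscle subunit of the calcium-activated potassium channel, was below the floor on both arrays.

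Genes that smooth and striated muscle share were lower wherever both arrays measured them. Of 11, 9 were measured, and 3 of the 9 differences are bounds. All 9 were lower, where 67.0% of all measured genes were higher. At least 2-fold lower were 4 (3 of 7 under a floor raised to the 75th percentile), beside 2.73% of all measured genes. The median difference of the 9 was -0.80. Des, the intermediate filament of both muscle types, gave 11.28 and 6.33, a difference of -4.96 or 31.1-fold lower. Its double-knockout value stood only 0.14 above the floor. Tpm2, a tropomyosin of slow skeletal fibres and smooth muscle, gave 11.01 and 7.61, a difference of -3.40. Nexn, an actin-binding protein, gave 8.02 and then 4.87 under the floor, at least 3.55-fold lower. Tpm1 gave 11.22 and 10.43, a difference of -0.79. The smooth and skeletal muscle parts of these signals cannot be told apart.

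**Figure D4:**
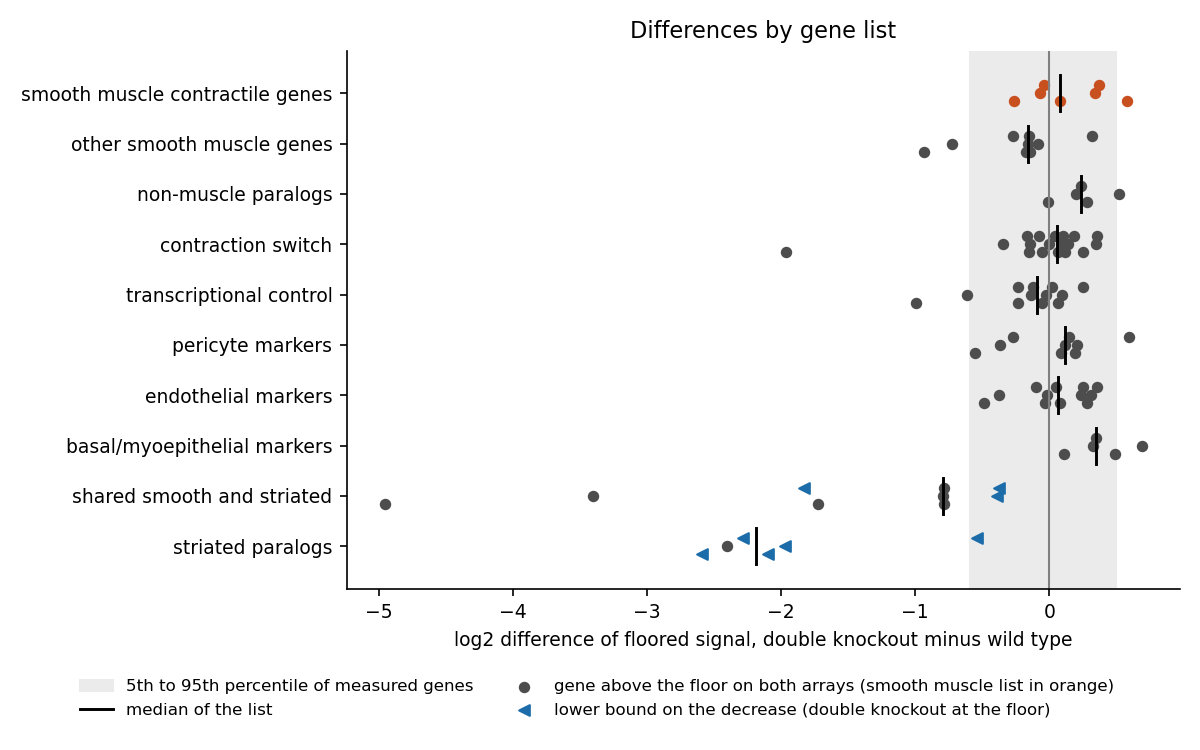
Log2 difference of floored signal between double knockout and wild type (horizontal axis) for each measured gene of 10 lists, with the list medians as black bars, bounds as triangles and the 5th to 95th percentile of all measured genes shaded. The median of the smooth muscle contractile genes (0.08) lies in the shaded range, as do 6 of the 7 genes, with Mylk to its right. The striated paralogs (median -2.19) and the shared genes (median -0.80) lie mostly to the left of that range.

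The enzymes that switch smooth muscle contraction on and off lay near the median of all measured genes, apart from 1 gene. Of 22 listed, 18 were measured, 10 were higher and 8 lower, with a median difference of 0.05 (7 higher and a median of -0.044 with the median of all measured genes set to 0). Beside 2.73% of all measured genes, 1 of the 18 was at least 2-fold lower. This was Ppp1r12b, a targeting subunit of myosin phosphatase that striated muscle also makes in quantity, with 9.33 and 7.36 on its brightest probe set, a difference of -1.96. It has 7 probe sets, of which 5 exceeded the floor on both arrays; these 5 differed by -0.33 to -1.96. The related subunit Ppp1r12a, named after its value was seen, differed by 0.10. Myl12b, a regulatory light chain of non-muscle myosin, gave 9.97 and 10.33, and Gucy1a1, a subunit of the nitric oxide receptor that relaxes smooth muscle, gave 6.59 and 6.93. Rhoa, the small GTPase that holds myosin phosphatase in check, gave 11.91 and 11.98, a difference of 0.07 that became -0.031 with the median of all measured genes set to 0.

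Of 12 genes that control smooth muscle transcription or the Notch signal to vessel walls, all 12 exceeded the floor on both arrays. As deposited 8 were lower and 4 higher, where 67.0% of all measured genes were higher, and the median difference of the 12 was -0.09. The split was 11 lower and 1 higher with the median of all measured genes set to 0 (median -0.19) and 9 lower and 3 higher after quantile normalisation. 0 were 2-fold apart as deposited, and 1 was at least 2-fold lower under either other scaling. Mef2c, which skeletal muscle also expresses strongly, gave 10.05 and 9.05, a difference of -0.997. Srf, the factor that binds the CArG box, gave 8.96 and 8.35, a difference of -0.61 or 1.53-fold lower. Jag1, a Notch ligand, gave 8.57 and 8.81, and Prrx1, a mesenchymal factor, gave 9.96 and 9.93. The 2 myocardin relatives were named after their values were seen. Mrtfa differed by -0.14, and the 3 probe sets of Mrtfb disagreed, with differences from -0.23 to 0.31.

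Vessel-associated cells were followed beside the smooth muscle genes. Of 10 pericyte markers, 9 were measured, 6 were higher and 3 lower, near the 67.0% of all measured genes, and the median difference was 0.12 (5 higher and a median of 0.02 with the median of all measured genes set to 0); Higd1b was below the floor on both arrays. Pdgfrb, the growth factor receptor of mural cells, gave 8.92 and 9.51, a difference of 0.59. Abcc9, a potassium channel subunit, gave 8.85 and 8.30, a difference of -0.55, and which cells gave its signal was not tested. Mcam, an adhesion molecule of mural and endothelial cells, gave 9.36 and 8.99, and the peptidase Anpep gave 9.16 and 9.35. The summed linear signal of the list in the double knockout was 1.02 times that in the wild type.

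Of 12 endothelial markers, all 12 exceeded the floor on both arrays, 7 were higher and 5 lower, with a median of 0.07 (5 higher and a median of -0.032 with the median of all measured genes set to 0). Tek, the angiopoietin receptor, gave 7.92 and 7.44, and the tight junction gene Cldn5 gave 8.42 and 8.05. Eng, endoglin, gave 9.14 and 9.50, and the endothelial cadherin Cdh5 gave 9.86 and 9.94. The summed signal ratio was 1.07. The mural and endothelial lists held members on both sides of 0, as the smooth muscle list did.

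Markers of other contractile cells were read on the same arrays. All 15 skeletal muscle markers were at least 2-fold lower, beside 2.73% of all measured genes. In the double knockout 14 of the 15 were at the floor, so these could only come out lower, and the summed signal ratio was 0.0155. Acta1, Tnnt3 (fast troponin T) and Atp2a1 (the calcium pump) had the largest bounds, 64.5-fold, 56.3-fold and 49.5-fold. All 6 heart markers were below the floor on both arrays. Myoepithelial cells of salivary glands also make Acta2, Cnn1 and Myh11. Of 6 basal and myoepithelial markers, 5 were measured and all 5 were higher in the double knockout (median 0.35, summed signal ratio 1.21), beside 67.0% of all measured genes, while Oxtr was below the floor on both arrays. Cdh3, P-cadherin, gave 7.98 and 8.67, Trp63, the basal cell factor p63, gave 8.59 and 9.09, Krt14 gave 10.19 and 10.53 and Krt5 gave 11.34 and 11.45; epidermis expresses all 4. Salivary secretory genes, a list chosen like the others with earlier results of these data known, were higher by more. All 8 were at least 2-fold higher (6 with the floor at the 75th percentile), beside 0.510% of all measured genes. The median difference of the 8 was 3.08 (2.11 with that floor), and the summed signal ratio was 8.37. Examples were Pip (17.4-fold), Smgc (11.4-fold), Lpo (10.5-fold) and Bpifa2 (9.06-fold). Car6, below the floor in the wild type, could only come out higher and is only bounded, at 7.94-fold or more. The part of these cells in the values of the smooth muscle genes was not tested.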

How the data were processed

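Total RNA of 1 wild-type and 1 double-knockout mandible sample (6 µg) was labelled with biotin for Affymetrix arrays, per the labels' protocols. The deposited table holds 1 log2 value per probe set and array for 35557 probe sets; the base was read from the values, which ran from 1.42 to 13.35. MAS5 is named, with no version, per the submitters' processing notes. The normalization between arrays and the logarithm step are not given in the sources used here.

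Values were compared as deposited, since the 2% trimmed means of the linear signal lay within 5% (ratio 1.02, double knockout over wild type). Genes came from the platform annotation (21789 probe sets with 1 gene, 1621 with several, 12147 with none), with symbols updated by Entrez identifier through RefSeq (GRCm38.p6). Values below the 50th percentile of annotated probe sets were raised to it, and each gene was represented by its brightest probe set (mean of the linear signals). Where 1 of the 2 values was at the floor, the difference is a bound. No test was possible with 1 array per genotype, and the number of arrays limits the precision. The 14 gene lists and all members were chosen with earlier results of these data known. Named by rule were all members, the measured genes of the other smooth muscle and both paralog lists, and of each other list the 3 genes with the largest differences and the brightest; others are said to have been chosen after their values were seen. The counting was tested on simulated data. Python 3.11.15, pandas 2.3.3 and matplotlib 3.10.9 were used.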

Additional observations from a re-analysis of the deposited data

How the results depend on the processing

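The number of arrays limits all values, and the signal over the floor limits Myh11, Cnn1, Lmod1 and Myocd. Across 9 other settings, 0 members were at least 2-fold apart in either direction, also at 1.5-fold and 3-fold. Some of these settings could not have raised that count. Each member has 1 probe set, a 3-fold threshold is stricter, and a raised floor narrows differences or drops members. The members' median difference of 0.08 was -0.014 with the median of all measured genes set to 0, 0.07 after quantile normalisation, and -0.043 over 9 members with the floor at the 25th percentile or without a floor. A floor at the 75th percentile gave 0.36 and left 4 members (Cnn2, Mylk, Smtn and Cald1). Mylk ranged from 0.40 to 0.58 and Cnn1 from -0.014 to 0.08. Of 62 named genes, 3 changed sign with the median set to 0 (Cnn1, Rhoa and Cdh5) and 0 after quantile normalisation. The bounds of the striated paralogs grew with a lower floor: the lower alternative floor gave them a median of -3.45 and the higher one -0.70. As the median over the differences of its probe sets, Ppp1r12b was at -1.64. A floor at the 75th percentile brought the bound of Nexn from -1.83 to -0.24 and moved Des from -4.96 to -3.51, since Nexn and Des then met a higher floor in the double knockout. No paired analysis was possible because each genotype has 1 array, and no array could be left out.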

Other observations

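Connective tissue cells were followed by 7 fibroblast markers, of which 6 were above the floor on both arrays. Of these, 3 were higher and 3 lower in the double knockout, with a median difference of 0.05 that became -0.046 with the median of all measured genes set to 0. Periostin, Postn, a matrix protein of periosteum and ligament, gave 11.87 and 11.44, a difference of -0.42. Pdgfra, a receptor of mesenchymal cells, gave 9.70 and 10.01, the fibrillar collagen Col3a1 gave 10.29 and 10.02, and Col1a2, the brightest, gave 12.10 and 12.24.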
